A study of Rattus norvegicus with 72 samples.

Results

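Cathepsins are the proteases of the lysosome, the acidic compartment in which cells break down proteins, and LAMP1 and LAMP2 are the heavily glycosylated proteins that line its membrane. The genes described here are Ctsb, Ctsc, Ctsd, Ctsh, Ctsk, Ctsl, Ctss, Ctsz, Lamp1 and Lamp2, chosen by symbol among the lysosomal genes of rat. They are 10 of the 14217 genes that a probe set (a group of short probes for one transcript) names alone on these arrays, and 15 of the 31042 probe sets measure them. All 10 were measured, and no filter on low values was applied.

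RNA came from 3 tissues of rats: mammary gland, liver and adipose tissue. Pregnant rats at standard gravity, pregnant rats in hypergravity, lactating rats at standard gravity and lactating rats in hypergravity gave all 3 tissues, with 20 rats in all, 5 to a group. A separate set of 12 mammary arrays came from pregnant rats, 4 labelled microgravity, 4 labelled as a flight control and 4 as a vivarium control. The labels used here give no strain, age, gravitational load or day of pregnancy or lactation, and do not say whether the 4 arrays of a microgravity-set group came from separate animals, so p-values there may measure technical spread only.

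Cathepsins are made as inactive precursors, carried to the lysosome by mannose 6-phosphate receptors and activated by its low pH. Cathepsin D is an aspartic protease and the other cathepsins named here are cysteine proteases. Of these, cathepsins B, L, K and S cut within proteins, and cathepsins C, H and Z mainly trim amino acids from chain ends. Macrophages hold large amounts of most of them, and cathepsin S trims the invariant chain for antigen presentation. In the mammary gland cathepsins are known from involution, the regression that follows weaning, in which cathepsins B and L act in dying milk-secreting cells of the mouse. TFEB, a transcription factor that switches on many lysosomal genes, binds a short palindromic promoter element known as CLEAR.

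The promoters of Ctsd and Lamp1 are shown because they hold that element, and the promoter of Ctsl because Ctsl differed most between gravity conditions. They come from RefSeq (build GRCr8), whose promoter table held 9 of the 10 genes (all but Ctsb). Each window searched ran from 250 bases before to 50 bases after a start, on both strands. The CLEAR core TCACGTGA, which contains the E-box CACGTG, lay in the promoters of Ctsd and Lamp1 and in 0.777% of 33469 rat promoters. The E-box, counted inside the CLEAR core as well as outside it, was found in the same pair and in 6.42% of all. The CCAAT box was found in Ctsd, Ctsk, Ctsl, Ctss and Lamp2 and in 37.5% of all promoters. In the Ctsd stretch (chr1:206968822-206968991, minus strand) and the Lamp1 stretch (chr16:83075064-83075253, minus strand, upstream of a start inside the annotated gene) capitals mark the E-box or, where it is complete, the CLEAR core. In the Ctsl stretch (chr17:769984-770103, plus strand) capitals mark the CCAAT box.
Ctsd: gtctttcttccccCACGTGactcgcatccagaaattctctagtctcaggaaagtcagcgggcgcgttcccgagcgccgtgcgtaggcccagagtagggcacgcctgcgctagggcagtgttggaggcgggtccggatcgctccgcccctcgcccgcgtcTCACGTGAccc
Lamp1: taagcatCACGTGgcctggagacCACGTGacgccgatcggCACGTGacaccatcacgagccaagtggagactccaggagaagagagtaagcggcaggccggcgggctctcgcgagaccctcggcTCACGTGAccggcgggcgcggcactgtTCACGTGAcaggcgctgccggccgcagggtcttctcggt
Ctsl: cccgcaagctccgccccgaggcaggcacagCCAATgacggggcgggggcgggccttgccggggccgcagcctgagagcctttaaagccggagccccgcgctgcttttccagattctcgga
Ctsd held 2 E-boxes in its window and Lamp1 held 5, those inside a CLEAR core included. These matches describe the letters of the windows and show no binding.

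Values are log2 signals, so that 1 unit is a doubling, and array medians lay between 4.32 and 4.56 in the 60 arrays at standard gravity or in hypergravity and between 4.87 and 5.02 in the microgravity set. Levels were therefore compared only within a set. Upper quartiles of the 60 arrays were less even, from 6.53 to 7.19. The lowest was that of L212H, a lactating liver in hypergravity, and the next that of A48S (6.84). The mammary array M210H had the markers of adipose tissue (milk protein genes 3.20 on average, adipocyte markers 9.82), and the adipose array A210H those of mammary gland (12.39 and 7.14). Both were left out, which leaves 4 arrays of lactating rats in hypergravity in each of these tissues and 5 in every other standard gravity or hypergravity group. Milk protein genes averaged 11.67 to 12.80 on the other mammary arrays, hepatocyte markers 11.62 to 12.03 on the liver arrays and adipocyte markers 9.12 to 10.38 on the other adipose arrays. Hepatocyte markers exceeded the median of comparable arrays by over 2 units on M52S and M56H, as did muscle markers on M50H, M212H, A217H, A48S, VIVA and VIVC. Milk protein genes did so outside the mammary gland on L55H, L214S and A55H (6.01, 5.55 and 6.11), and lymphocyte markers on M60H, A56H and FDSB (7.06, 7.12 and 8.53). Results that changed without one of these sets of arrays are given both ways. For each gene the probe set with the highest mean is described, and the other 5 probe sets are given where they differ. Differences were tested with limma over all 31042 probe sets with Benjamini-Hochberg adjustment, and a gene was called where the adjusted p was under 0.05. Shares of all probe sets, given beside the counts, include many dim ones. The 10 genes lay between percentiles 56.38 and 99.78 of mean signal, so these shares are not a baseline matched for brightness. "Rose" and "fell" are used only of called differences.

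The first question was how the lysosomal genes of the mammary gland differ between pregnancy and lactation at standard gravity. Ctsd rose and Ctsb, Ctsk and Ctss fell, 1 and 3 of the 10 genes. Of all probe sets, 16.8% were called higher in lactation and 17.3% lower. With dim probe sets filtered out, 8720 of the smaller number kept were called, against 10581 of all. The median difference was -0.23 over the 10 genes and -0.01 over all probe sets.

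Ctsd, the aspartic protease, stood at 8.14, 7.63, 9.27, 8.37 and 8.62 in the 5 lactating glands and at 7.17, 7.14, 6.00, 6.56 and 6.10 in the 5 pregnant glands. Every lactating gland lay above every pregnant gland. The means were 8.41 ± 0.61 and 6.59 ± 0.55 (SD, n = 5 each), a 3.52-fold rise (log2 1.81, SE 0.45, limma adjusted p = 0.0046).

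Ctss, the macrophage-rich protease of antigen presentation, read 10.48, 10.50, 10.62, 10.39 and 10.34 in lactation against 11.04, 11.15, 11.28, 11.19 and 11.02 in pregnancy. The groups did not overlap. Ctss fell by 0.67, from 11.13 ± 0.11 to 10.46 ± 0.11 (SD, n = 5 each; 1.59-fold, SE 0.15, limma adjusted p = 0.0025). Ctsk, the collagen-degrading protease best known from osteoclasts, read 4.74, 5.07, 5.37, 4.67 and 4.97 in lactation against 5.42, 5.99, 5.90, 6.32 and 5.91 in pregnancy. These groups were also apart, although Ctsk lay close to the array median, and it fell by 0.94 (1.92-fold, SE 0.23, limma adjusted p = 0.0041).

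Ctsb, an abundant cysteine protease, read 11.53, 11.35, 12.07, 11.75 and 11.91 in lactation and 12.35, 12.36, 12.22, 12.38 and 12.01 in pregnancy. A single lactating gland, M214S at 12.07, reached above the lowest pregnant gland. The fall was by 0.54 (1.45-fold, SE 0.15, limma adjusted p = 0.0083). Ctsl, a cysteine endopeptidase like Ctsb, was not called (log2 0.24, limma adjusted p = 0.55). Among the end-trimming enzymes the differences were 0.31 for Ctsc (limma adjusted p = 0.084), 0.02 for Ctsh and -0.26 for Ctsz, none of them called. The membrane genes were not called either, with -0.29 for Lamp1 and -0.21 for Lamp2.

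Other probe sets of the same genes did not always give the same call. The dimmer probe set of Ctsc was 1.41 higher in lactation (limma adjusted p = 0.0036), and a dim probe set of Lamp1 was 0.65 higher (limma adjusted p = 0.025). The second probe set of Lamp2 was lower: 9.80, 9.11, 9.92, 9.45 and 9.58 in lactation against 10.29, 10.40, 10.63, 10.62 and 10.07 in pregnancy, a fall by 0.83 (limma adjusted p = 0.00092). For these 3 genes the call depended on the probe set.

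The other lysosomal genes and a list of protease inhibitors fell more often than they rose in the same comparison. Among 27 acid hydrolases and activators 16 fell and 4 rose. Idua, which trims glycosaminoglycans, fell by 3.22, and Arsa, which removes sulphate from sulphatide, fell by 2.45. Prcp, a carboxypeptidase, rose by 2.50 and Gm2a, the activator of ganglioside breakdown, by 0.79. Of 8 other cathepsins and legumain 4 fell, with Ctsa, the protective protein of sialidase and galactosidase, by 2.16 and Ctso by 1.37. Among 5 inhibitors Serpina3n fell by 1.55 and no other was called.

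Of 16 other membrane proteins 7 fell and none rose, with Cd68, a macrophage LAMP relative, falling by 2.00 and the acid phosphatase Acp2 by 1.08. The proton pump that acidifies the lysosome had 2 subunits higher (Atp6v1g1 by 1.65, Atp6v1h by 0.42) and 3 of 15 lower (Atp6v0a1 and Atp6v1e1 each by 1.34 among them). Of 11 sorting and regulatory genes 6 fell and 2 rose. The 2 that rose were the mannose 6-phosphate receptors Igf2r, by 0.55, and M6pr, by 0.38, while Grn fell by 1.86 and Nagpa by 1.21.

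Markers of cell types moved in this comparison too. The macrophage markers averaged 6.78 to 7.17 in lactating glands and 7.69 to 8.06 in pregnant ones, with 7 of 14 lower and none higher, among them Lyz2 (lower by 2.52) and Cd14 (lower by 2.16). The luminal epithelium markers averaged 7.90 to 7.98 in lactation and 8.55 to 9.15 in pregnancy, with 7 of 12 lower. Milk protein genes averaged 12.63 to 12.80 in lactation and 12.13 to 12.32 in pregnancy, with 3 of 7 higher, and 4 of 15 fibroblast and matrix markers were lower. Their part in the rise of Ctsd and the falls of Ctsb, Ctsk and Ctss was not tested. In whole tissue, fewer cells of a type and less RNA per cell cannot be told apart.

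**Figure D1:**
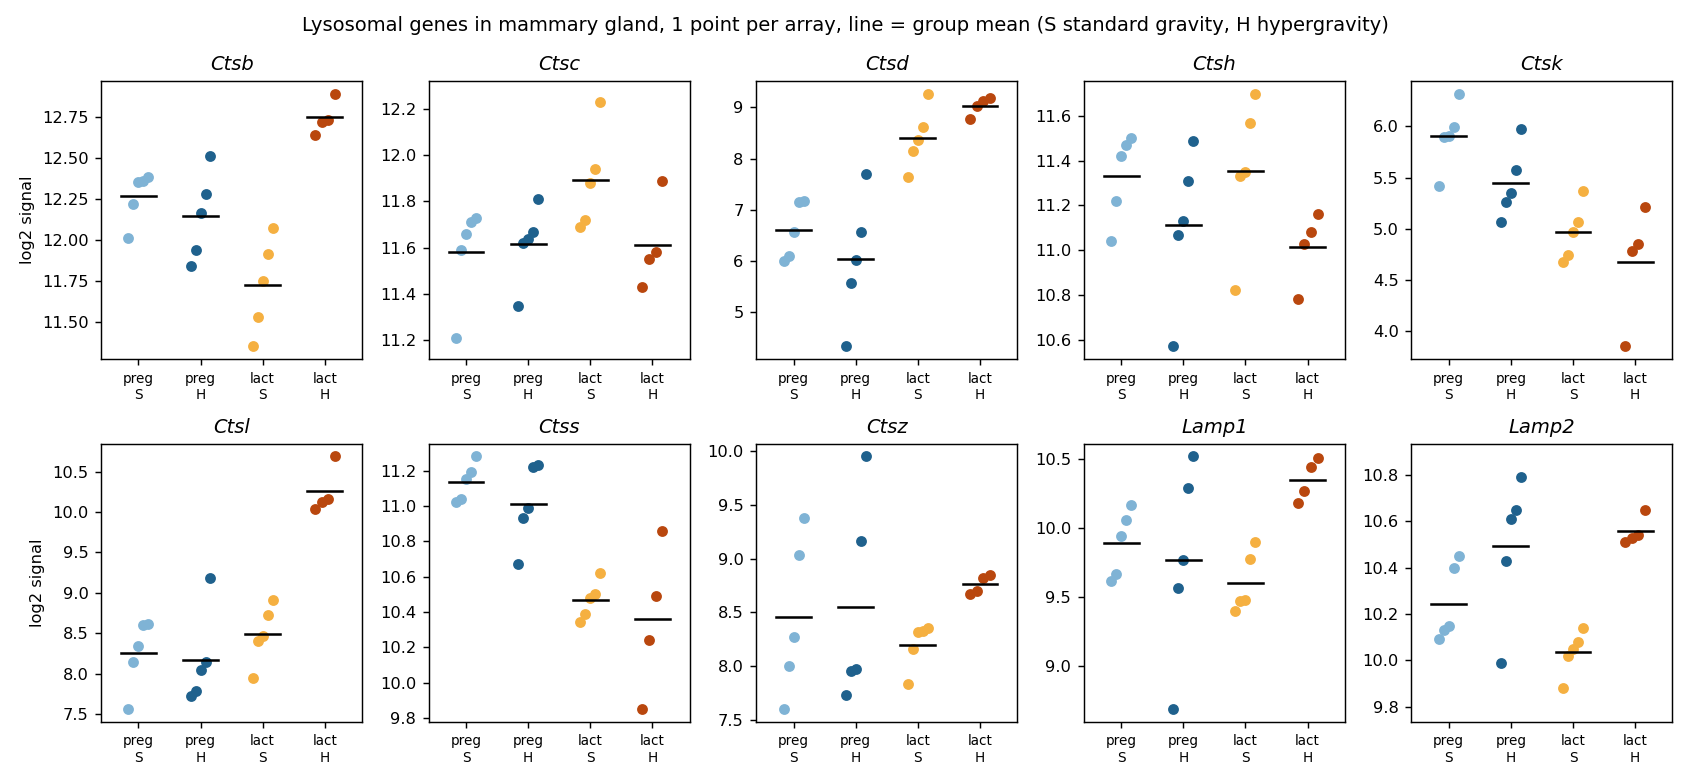
Log2 signal of the 10 genes in mammary gland, 1 point per array and a line at the group mean, with each panel on its own axis (preg pregnancy, lact lactation, S standard gravity, H hypergravity). Ctsb and Ctsl in lactating glands in hypergravity lie above every gland of the other 3 groups (lowest values 12.64 and 10.04), and Ctsd is high in both lactating groups.

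The second question was whether hypergravity changed these genes in the mammary gland. In pregnancy none of the 10 genes was called by limma, and none had an unadjusted p under 0.05. Of all probe sets 0.00322% were called and 1668 had an unadjusted p under 0.05. The differences ran from -0.56 for Ctsd to 0.25 for Lamp2.

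In lactation 3 of the 10 genes rose in hypergravity and none fell: Ctsl, Ctsb and Lamp2. Of all probe sets 4.49% were called higher and 4.94% lower. The median over the 10 genes was 0.54 and that over all probe sets 0.01.

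Ctsl read 10.69, 10.16, 10.04 and 10.13 in the 4 lactating glands in hypergravity. The 5 lactating glands at standard gravity read 8.73, 7.94, 8.91, 8.46 and 8.40, so that the groups were more than 1 unit apart. The rise was 3.40-fold (log2 1.77, SE 0.28, limma adjusted p = 0.00041). The second Ctsl probe set read 10.42, 10.41, 10.46 and 10.10 against 8.25, 7.58, 8.68, 8.31 and 8.25, a rise by 2.13.

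Ctsb read 12.64, 12.89, 12.72 and 12.73 in hypergravity against 11.53, 11.35, 12.07, 11.75 and 11.91 at standard gravity. The groups were apart, and Ctsb rose 2.03-fold (log2 1.02, SE 0.16, limma adjusted p = 0.00028). These values approach the top of the scale, where the brightest probe set of these arrays at standard gravity or in hypergravity stood at 13.64. Array signals flatten there, and whether that shortened the difference was not tested.

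Lamp2, the lysosomal membrane protein that also serves chaperone-mediated autophagy, read 10.65, 10.54, 10.51 and 10.53 in hypergravity and 10.05, 9.88, 10.14, 10.08 and 10.02 at standard gravity. All 4 values of the first group lay above the second group. The rise from 10.03 ± 0.10 (SD, n = 5) to 10.56 ± 0.06 (SD, n = 4) was 1.44-fold (log2 0.52, SE 0.14, limma adjusted p = 0.020). The call was lost without M203H (log2 0.49, adjusted p = 0.066) and without the arrays that carried hepatocyte or muscle markers (log2 0.54, adjusted p = 0.057). The second Lamp2 probe set read 10.57, 10.50, 10.50 and 10.53 against 9.80, 9.11, 9.92, 9.45 and 9.58 (log2 0.95, limma adjusted p = 0.0016).

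Lamp1 read 10.18, 10.51, 10.44 and 10.27 in hypergravity against 9.47, 9.90, 9.48, 9.40 and 9.78. The groups did not overlap, but the difference of 0.75 was not called (limma adjusted p = 0.088). It was called without M60H, the mammary array with lymphocyte markers (log2 0.75, adjusted p = 0.013) or M55H (0.050, just under the threshold), with only the groups compared in the fit (adjusted p = 0.0051) and with weights for array quality (adjusted p = 0.0021). A dim Lamp1 probe set was 0.87 higher (limma adjusted p = 0.020). Ctsz read 8.67, 8.70, 8.85 and 8.82 against 7.83, 8.35, 8.33, 8.16 and 8.32. These groups were apart as well, yet the difference of 0.57 was not called (limma adjusted p = 0.53). The pregnant glands, which shared the fit, ran from 7.60 to 9.95 for Ctsz, and with only the compared groups in the fit its adjusted p was 0.015.

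The remaining 5 genes gave 0.62 for Ctsd, -0.28 for Ctsc, -0.34 for Ctsh, -0.29 for Ctsk and -0.10 for Ctss, none called. Ctsd read 8.77, 9.03, 9.13 and 9.19 in hypergravity, and M214S, at standard gravity, lay above all 4 with 9.27.

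Among the other lysosomal genes and a list of protease inhibitors in lactation, called differences with hypergravity were nearly all rises. Of 8 other cathepsins and legumain 3 rose, with Ctsa by 1.46 and Lgmn, which processes cathepsin precursors, by 1.10. Of 5 inhibitors 2 rose: Cstb, the cystatin that blocks cathepsins B, H, L and S, by 1.55 and Serpina3n by 1.55. Of 27 hydrolases 8 rose, led by the phospholipase Pla2g15 by 1.38 and the dipeptidase Dpp7 by 1.16. Of 16 other membrane proteins Scarb2, the carrier of glucocerebrosidase, rose by 2.13 and Acp2 by 0.92, and none fell.

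Of 15 pump subunits 2 rose, Atp6v1e1 by 1.36 and Atp6v0e1 by 0.69. Of 11 sorting and regulatory genes 3 rose, with Grn by 0.90 and Flcn by 0.67, and Sort1, a sorting receptor, fell by 1.39. In pregnancy no gene of these 6 lists was called with hypergravity.

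Cell type markers moved with this comparison as well. Macrophage markers averaged 7.37 to 7.96 in hypergravity and 6.78 to 7.17 at standard gravity, with 5 of 14 higher, led by Cd14 (3.46 higher) and Aif1 (1.02 higher). Luminal epithelium markers averaged 8.77 to 9.06 against 7.90 to 7.98, with 7 of 12 higher, led by Krt7 (3.17 higher) and Cldn4 (2.08 higher). Milk protein genes averaged 12.20 to 12.35 against 12.63 to 12.80, with 2 of 7 lower. In all 3 lists the arrays of the groups did not overlap. Their part in the rises of Ctsl, Ctsb and Lamp2 was not tested.

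The third question was whether the change from pregnancy to lactation differed between gravity conditions. In hypergravity Ctsd, Ctsl and Ctsb rose and Ctss and Ctsk fell in lactation, 3 and 2 of the 10 genes. Of all probe sets 14.6% were called higher and 14.6% lower. The lactating arrays in hypergravity are the same as in the comparison above, so the values of Ctsl and Ctsb are not separate evidence.

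Ctsd went from 6.01, 7.69, 6.57, 5.56 and 4.32 in pregnant to 8.77, 9.03, 9.13 and 9.19 in lactating glands in hypergravity. The pregnant glands spread over more than 3 units and all lay below the lactating ones. The rise was 8.01-fold (log2 3.00, SE 0.48, limma adjusted p = 0.00025). Its size is uncertain, since Ctsd in M60H, the array with lymphocyte markers, lay at 4.32, below that array's median of 4.46. Ctsd had no other probe set to compare. Ctsl went from 7.78, 9.18, 8.14, 8.04 and 7.72 to 10.69, 10.16, 10.04 and 10.13, a 4.23-fold rise (log2 2.08, SE 0.28, limma adjusted p = 6.5e-05). Ctsb went from 12.16, 12.51, 11.84, 12.28 and 11.94 to 12.64, 12.89, 12.72 and 12.73, a 1.52-fold rise (log2 0.60, SE 0.16, limma adjusted p = 0.0077). Ctsl and Ctsb, like Ctsd, did not overlap between the stages, though the call of Ctsb was lost without the arrays that carried hepatocyte or muscle markers (log2 0.51, adjusted p = 0.067).

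Ctss fell by 0.65 (SE 0.16, limma adjusted p = 0.0063), from 10.99, 10.93, 10.67, 11.22 and 11.23 to 9.85, 10.49, 10.24 and 10.86. Ctsk fell by 0.77 (SE 0.25, limma adjusted p = 0.024), from 5.97, 5.07, 5.35, 5.57 and 5.26 to 3.85, 4.78, 5.21 and 4.85. Both overlapped between the stages, and M203H was the lowest gland for each. The Ctsk call was lost without M203H (adjusted p = 0.11), M50H (0.069) or M59H (0.053), and with only the compared groups in the fit Ctsk stood at 0.084 and Ctss at 0.061. The other 5 genes were not called, with 0.58 for Lamp1 (limma adjusted p = 0.11, called without M55H or M56H at 0.025 to 0.041), 0.21 for Ctsz, 0.07 for Lamp2, -0.01 for Ctsc and -0.10 for Ctsh. Of the other probe sets, those of Ctsl (2.44), Lamp1 (1.54) and Lamp2 (0.59) were called higher.

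Between the stages in hypergravity the lymphocyte markers averaged 4.28 to 4.62 in lactation and 4.78 to 7.06 in pregnancy, with 4 of 10 lower and none higher. Fibroblast and matrix markers averaged 8.93 to 9.63 against 8.46 to 9.05, with 5 of 15 higher and 1 lower. Of 14 macrophage markers 2 were higher and 3 lower, and their averages of 7.37 to 7.96 and 7.59 to 8.03 overlapped. Of 12 luminal markers 3 were higher and 2 lower, and of 7 milk protein genes 1 was higher. Their part in the changes of Ctsd, Ctsl, Ctsb, Ctss and Ctsk was not tested.

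The interaction, which is the stage difference in hypergravity minus that at standard gravity, was called for Ctsb and Ctsl, both higher. Of all probe sets 2.18% were called higher and 1.85% lower. Ctsb changed direction: its stage difference was -0.54 at standard gravity and 0.60 in hypergravity, an interaction of 1.14 (SE 0.21, limma adjusted p = 0.0044). For Ctsl the stage differences were 0.24 and 2.08, an interaction of 1.84 (SE 0.39, limma adjusted p = 0.0098). Without the arrays that carried hepatocyte or muscle markers the Ctsl interaction was 1.75 and its call was lost (adjusted p = 0.061). The second Ctsl probe set gave 2.12 (limma adjusted p = 0.00054) and the second Lamp2 probe set 1.42 (limma adjusted p = 0.0021), whereas the brighter Lamp2 probe set gave 0.28 and was not called. Ctsd, with 1.19, and Lamp1, with 0.87, were not called (limma adjusted p = 0.45 and 0.24). The Lamp1 interaction was called with weights for array quality (log2 0.92, limma adjusted p = 0.04). With the mean of its probe sets it was called as well (log2 0.67, limma adjusted p = 0.025).

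The interaction was also called higher for 3 of 8 other cathepsins and legumain (Ctsa 1.86 and Ctsf 1.24 the largest), 1 inhibitor (Cstb 1.57), 3 hydrolases, 2 membrane proteins (Scarb2 2.25 and Acp2 1.04), 1 pump subunit and 1 sorting gene, and lower for none of these lists. It was called higher for 4 of 14 macrophage markers, led by Cd14 (4.03), and for 5 of 12 luminal markers, led by Krt7 (2.77). In hypergravity the stage difference of the lists was mixed: 4 hydrolases rose and 6 fell, 4 membrane proteins rose and 2 fell, 4 pump subunits rose, and Tfeb itself fell by 1.10.

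**Figure D2:**
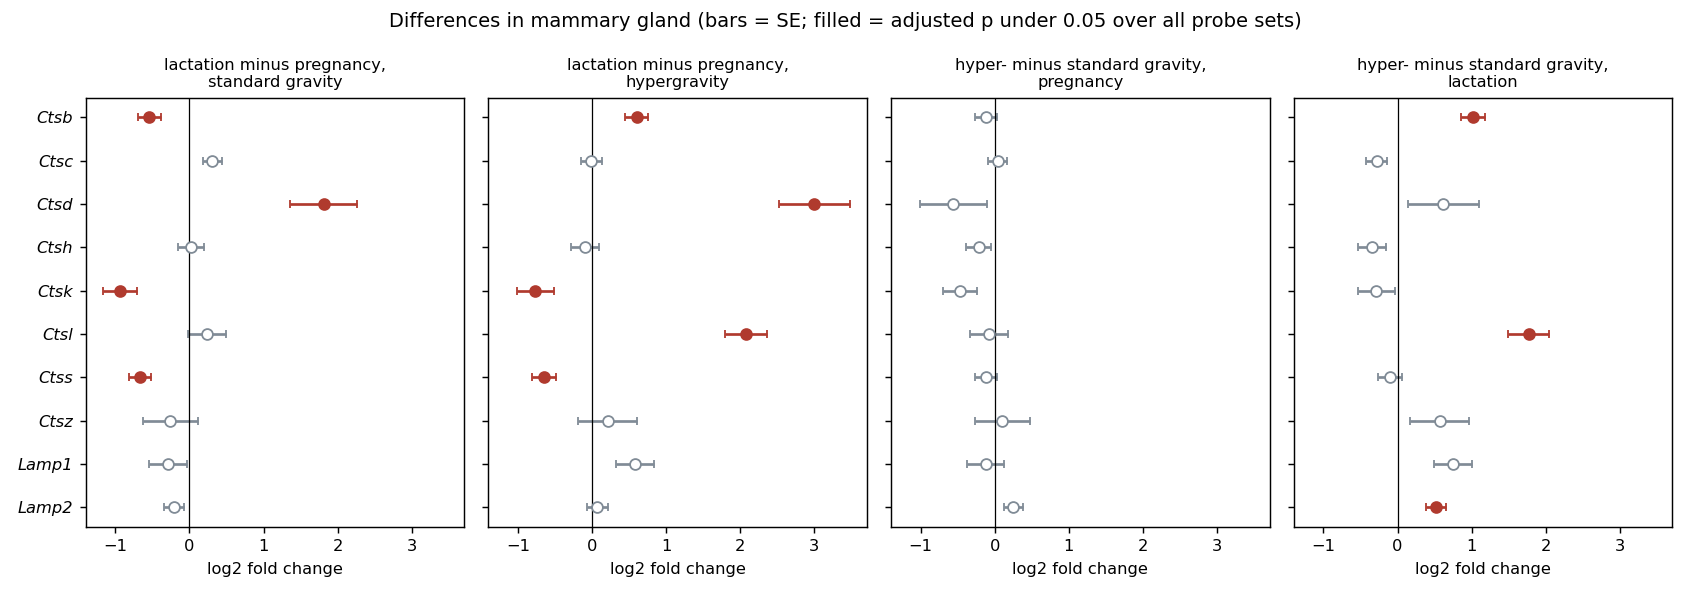
Log2 fold changes of the 10 genes in mammary gland in 4 comparisons, each point with its SE and filled red where the limma adjusted p over all probe sets was under 0.05. Ctsb lies at -0.54 for the stage at standard gravity and at 0.60 in hypergravity, and no gene is filled for hypergravity in pregnancy.

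In liver, where hepatocytes and Kupffer cells are the main holders of lysosomes, none of the 10 genes was called in any of the 5 comparisons. By limma 0.622% of probe sets were called between the stages at standard gravity, 3.23% between the stages in hypergravity, 0.103% with hypergravity in pregnancy, 0.406% with hypergravity in lactation and 0.126% in the interaction. Unadjusted p under 0.05 was reached by 1, 2, 1, 1 and 1 of the 10 genes and by 3382, 5003, 2507, 4238 and 3500 probe sets.

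Ctsb came nearest to a call in liver. It averaged 11.92 ± 0.06 in lactating and 11.56 ± 0.15 in pregnant rats in hypergravity (SD, n = 5 each), and the groups did not overlap. The difference of 0.35 had an SE of 0.10 and a limma adjusted p of 0.066, and the gene was called without L55H (adjusted p = 0.037) and without both livers that carried milk protein genes (log2 0.41, adjusted p = 0.039). The interaction of Ctsb in liver was 0.42 (SE 0.15, limma adjusted p = 0.29). The second Ctsl probe set was 0.51 higher between the stages in hypergravity (limma adjusted p = 0.030), whereas the brighter one, at 10.46 ± 0.25 and 10.15 ± 0.05, was not called. Among the other lysosomal lists and the inhibitors Ctsa (0.63 higher), Gusb (0.47 higher) and Laptm4a (0.38 lower) were called in that comparison. No gene of the 6 lists was called in the other 4.

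In adipose tissue none of the 10 genes was called either, and almost no probe set was. By limma 0.00322% of probe sets were called between the stages at standard gravity, 0% between the stages in hypergravity, 0% with hypergravity in pregnancy, 0% with hypergravity in lactation and 0% in the interaction. Unadjusted p under 0.05 was reached by 1852, 1141, 1283, 709 and 1055 probe sets, and among the 10 genes by Ctss alone, with hypergravity in lactation.

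All 10 genes had negative differences with hypergravity in lactating adipose tissue, from -0.63 for Ctss (SE 0.28) to -0.08 for Ctsd, none of them called. The median difference was -0.2 over the 10 genes and 0 over all probe sets. Most of the genes tended to vary together across adipose arrays, with a median Pearson's r of each with the others of 0.11 to 0.56. Single pairs ran as low as -0.36. These arrays include A48S, a pregnant array with muscle markers. It read lowest of its group for most of the genes (Ctsd 6.15, Ctsk 4.73, Ctsz 7.05), and its part in these r values was not tested. The shared sign of the 10 genes is not taken as separate evidence from each gene. Ctss averaged 10.45 ± 0.63 in hypergravity (SD, n = 4) and 11.08 ± 0.18 at standard gravity (SD, n = 5), with overlap. Macrophage markers averaged 7.86 to 8.91 in the former and 8.42 to 9.21 in the latter, and their part in these differences was not tested. Ctsc was most scattered there, with A206H at 9.12 in a group whose highest array stood at 11.39.

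Levels of each gene were then compared between tissues at standard gravity, in a fit of all 58 arrays. RNA was extracted by another kit from adipose tissue than from mammary gland and liver, so tissue and kit cannot be told apart in comparisons with adipose tissue. In pregnancy 4 genes were higher and 1 lower in mammary gland than in liver (25.1% and 25.3% of all probe sets). Against adipose tissue 2 were higher and 4 lower in mammary gland (20.9% and 20.4%), and 2 were higher and 5 lower in liver (17.7% and 18.2%). In lactation the counts were 3 and 3 for mammary gland against liver (19.6% and 15.8%), 2 and 6 for mammary gland against adipose tissue (14.8% and 15.1%) and 2 and 6 for liver against adipose tissue (15.1% and 17.9%).

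Ctsl was lower in mammary gland than in either other tissue at both stages. It averaged 10.10 ± 0.15 in liver, 9.44 ± 0.56 in adipose tissue and 8.25 ± 0.43 in mammary gland of pregnant rats (SD, n = 5 each). Mammary gland lay below liver by 1.85 in pregnancy and by 1.80 in lactation at standard gravity (limma adjusted p = 1e-10 and 2.8e-10). It lay below adipose tissue by 1.19 and 1.24. Liver was 0.66 and 0.56 above adipose tissue, calls that were lost without A48S (adjusted p = 0.062) or all arrays with hepatocyte or muscle markers (0.068) in pregnancy and without L216S, A216S, L214S or A202S in lactation (0.052 to 0.11) or the arrays that carried milk protein or lymphocyte markers (0.056). In lactating rats in hypergravity the mammary mean of 10.26 ± 0.29 lay beside the liver mean of 10.46 ± 0.25 and above the adipose mean of 9.55 ± 0.12, a difference between tissues that was not tested.

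Ctsk was lowest in liver, at 4.34 ± 0.53 in pregnancy, below the 6.21 ± 0.91 of adipose tissue by 1.88 and below mammary gland by 1.57. The liver values lay at or near the medians of the liver arrays (4.32 to 4.45), so Ctsk was not shown to be above background there, and differences against liver may be understated. Pregnant mammary gland and adipose tissue differed by -0.30 with no call, and by -0.78 without the arrays that carried hepatocyte or muscle markers, A48S among them (limma adjusted p = 0.030). In lactation mammary gland was 0.81 above liver (limma adjusted p = 0.036, 0.053 with the rat as a replicate block, 0.050 without the arrays that carried milk protein or lymphocyte markers, just over the threshold, and 0.055 to 0.11 without L216S, M219S, M214S or M202S) and lower than adipose tissue by 1.20. Ctss was above liver by 0.49 in the pregnant mammary gland (limma adjusted p = 0.026, 0.056 to 0.070 without L52S or M48S) and lower than in adipose tissue by 0.61 in the lactating one. Liver and adipose tissue differed in Ctss by -0.35 and -0.40 with no call, and by -0.55 and -0.40 without the arrays that carried hepatocyte or muscle markers (limma adjusted p = 0.0095 and 0.050, just under the threshold). The genes for Ctsk and Ctss lie close together on the same chromosome in GRCr8.

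Ctsb ordered differently by stage. In pregnancy mammary gland (12.26 ± 0.15) and adipose tissue (12.28 ± 0.29) lay above liver (11.76 ± 0.12) by 0.50 and 0.51, with no call between them. In lactation mammary gland (11.72 ± 0.29) and liver (11.69 ± 0.17) had no call between them, and adipose tissue stood above them by 0.77 and 0.80. Ctsd went the other way, with adipose tissue (7.68 ± 1.03) above mammary gland by 1.08 and above liver by 1.25 in pregnancy, and mammary gland 2.00 above liver in lactation (limma adjusted p = 1e-05). The first of these was lost without A52S, A57S or M48S (adjusted p 0.050, just over the threshold, to 0.070).

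Of the end-trimming enzymes Ctsh was highest in mammary gland, by 0.77 and 0.89 over liver and by 0.83 and 0.94 over adipose tissue in pregnancy and lactation. Ctsc, which activates the serine proteases of immune cells, was lower in adipose tissue than in liver by 1.05 and 1.09 and than in mammary gland by 0.67 and 0.88. The second Ctsc probe set was lower in adipose tissue than in liver too. In pregnancy it stood at 7.58 in mammary gland and 7.79 in adipose tissue with no call, and with the mean of both probe sets the difference of 0.23 was not called (limma adjusted p = 0.45), so that the order of these tissues in pregnancy rests on the choice of probe set. Ctsz was called once, 1.04 lower in liver than in adipose tissue in lactation.

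Lamp1 was highest in adipose tissue, above mammary gland by 0.82 and 1.12 and above liver by 0.55 and 0.57 in pregnancy and lactation (0.051 to 0.078 as adjusted p in pregnancy without A52S, L42S or L44S). With the mean of its probe sets Lamp1 lost the calls against liver (-0.21 and -0.28 for liver against adipose tissue, limma adjusted p = 0.14 and 0.051) and kept those against mammary gland. Lamp2 followed the same pattern by its brighter probe set, above mammary gland by 0.46 and 0.72 and above liver by 0.62 and 0.37 (adjusted p 0.054 to 0.057 in lactation without L214S or L202S). In lactation both lay lower in mammary gland than in liver, at -0.55 for Lamp1 (adjusted p 0.057 without L202S) and -0.35 for Lamp2 (0.051 to 0.088 without L216S, L201S, L219S or M202S). The second probe set of Lamp2 gave the opposite order of liver and adipose tissue, with liver 0.87 and 0.88 higher, so the order of Lamp2 between those tissues rests on the choice of probe set. Between mammary gland and adipose tissue it gave 10.40 against 10.01 in pregnancy, also the opposite order (log2 0.39, limma adjusted p = 0.035), and the same order in lactation (-0.39, limma adjusted p = 0.046). Macrophage markers averaged 7.36 to 9.22 in adipose tissue, 8.15 to 8.56 in liver and 7.69 to 8.06 in mammary gland of pregnant rats at standard gravity, and their part in these differences was not tested.

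**Figure D3:**
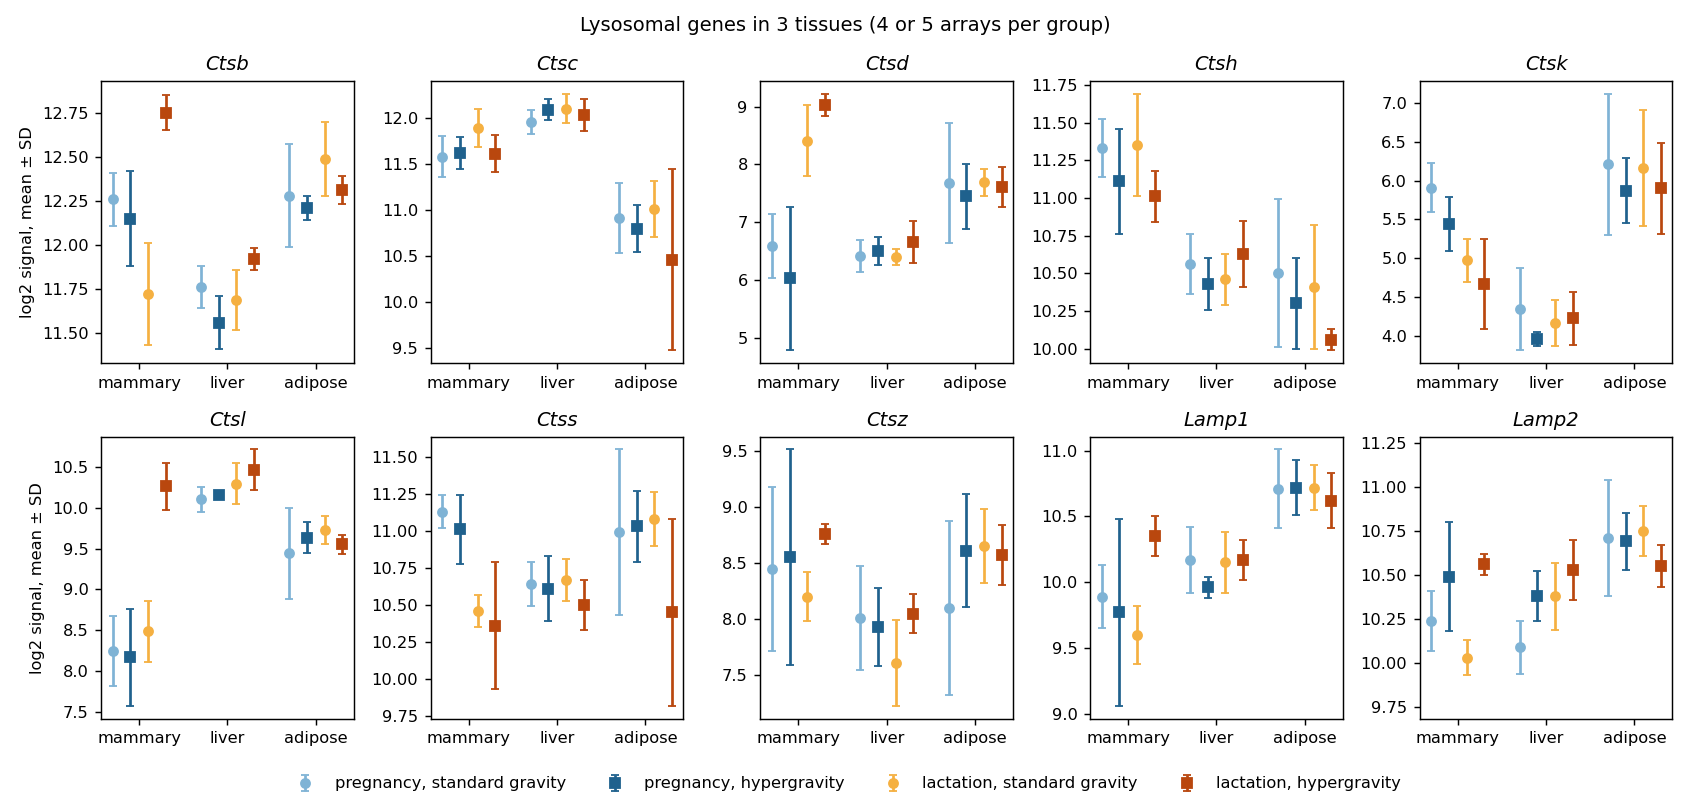
Mean log2 signal ± SD of the 10 genes in mammary gland, liver and adipose tissue by stage and gravity condition (5 arrays per group, 4 for lactating hypergravity mammary gland and adipose tissue), each panel on its own axis. Mammary Ctsl lies at 8.17 to 8.49 in 3 groups and at 10.26 in lactating rats in hypergravity, near the liver groups at 10.10 to 10.46.

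The stage difference at standard gravity was tested between tissues. Between mammary gland and liver, 1 of the 10 genes was called higher and 2 lower, against 10.6% and 11.4% of all probe sets. Between mammary gland and adipose tissue it was again 1 and 2, against 9.23% and 11.7%. Between liver and adipose tissue none was called by limma, against 0.0999% of all probe sets, and unadjusted p under 0.05 was reached by Ctsz alone and by 2103 probe sets.

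The rise of Ctsd was larger in mammary gland than in liver by 1.83 (SE 0.52, limma adjusted p = 0.0070) and than in adipose tissue by 1.80 (SE 0.52, limma adjusted p = 0.0085). Ctsd averaged 6.40 ± 0.14 and 6.42 ± 0.27 in liver and 7.69 ± 0.24 and 7.68 ± 1.03 in adipose tissue of lactating and pregnant rats (SD, n = 5 each). For Ctsb the stage difference in mammary gland was lower than in adipose tissue, at -0.75 (SE 0.17, limma adjusted p = 0.0011), and than in liver, at -0.47 (SE 0.17, limma adjusted p = 0.044). Ctss gave -0.76 against adipose tissue (SE 0.27, limma adjusted p = 0.035) and -0.70 against liver, which was not called (limma adjusted p = 0.051) but was called under other settings, among them array weights (0.013) and quantile normalization (0.014). With array weights the Ctss call against adipose tissue was lost (-0.66, limma adjusted p = 0.051). Lamp2 gave -0.50 against liver (SE 0.18, limma adjusted p = 0.033). The call of Ctsb against liver was lost without M216S, M52S, M42S, L42S, M44S, L44S, M201S, L219S, L214S, L48S, M202S, L202S or M48S (adjusted p 0.053 to 0.12), without the arrays with hepatocyte or muscle markers (0.051) and without those with milk protein or lymphocyte markers (0.081). That of Lamp2 was lost without L216S, M44S, L201S, M57S, L57S, L219S, L48S or M202S (0.054 to 0.074). That of Ctss was lost without M216S, M52S, M44S, A57S, M219S, A219S, A214S, A48S or M48S (0.051 to 0.12) and, against adipose tissue, without the arrays with hepatocyte or muscle markers (-0.54, 0.12).

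In the microgravity set none of the 10 genes was called by limma. Of all probe sets 0.367% were called between microgravity and the flight control, 0.493% between microgravity and the vivarium control and 0.00322% between the controls. Unadjusted p under 0.05 was reached by 2, 1 and 1 of the 10 genes and by 4100, 2951 and 2851 probe sets. Both comparisons with microgravity share its 4 arrays.

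Ctsz, the carboxypeptidase, read 8.80, 8.83, 8.65 and 8.68 in microgravity and 9.52, 9.36, 9.26 and 8.87 in the flight control. The groups did not overlap, with FDSD at 8.87 next to the microgravity arrays. The difference was -0.51 (SE 0.13, limma adjusted p = 0.13), and it was called without FDSD (adjusted p = 0.039). The vivarium control read 9.09, 8.97, 8.83 and 8.82, between these groups. Lymphocyte markers averaged 5.50 to 8.53 in the flight control and 5.21 to 6.40 in microgravity, with FDSB highest, and without FDSB the Ctsz difference was -0.48 (limma adjusted p = 0.19).

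Ctsd read 7.82, 7.57, 7.98 and 7.97 in microgravity. The flight control read 7.70, 7.06, 7.37 and 7.30 and the vivarium control 7.46, 7.42, 6.97 and 7.56. Microgravity was 0.48 higher than either control (SE 0.16, limma adjusted p = 0.23 and 0.29). It overlapped with the flight control and all but touched the vivarium control (lowest microgravity array 7.57, highest vivarium array 7.56). The other genes were close together, such as Ctsb with 12.02 ± 0.07 in microgravity, 12.07 ± 0.10 in the flight control and 12.13 ± 0.10 in the vivarium control, and Ctss with 11.45 ± 0.09, 11.42 ± 0.20 and 11.38 ± 0.05 (SD, n = 4 each).

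**Figure D4:**
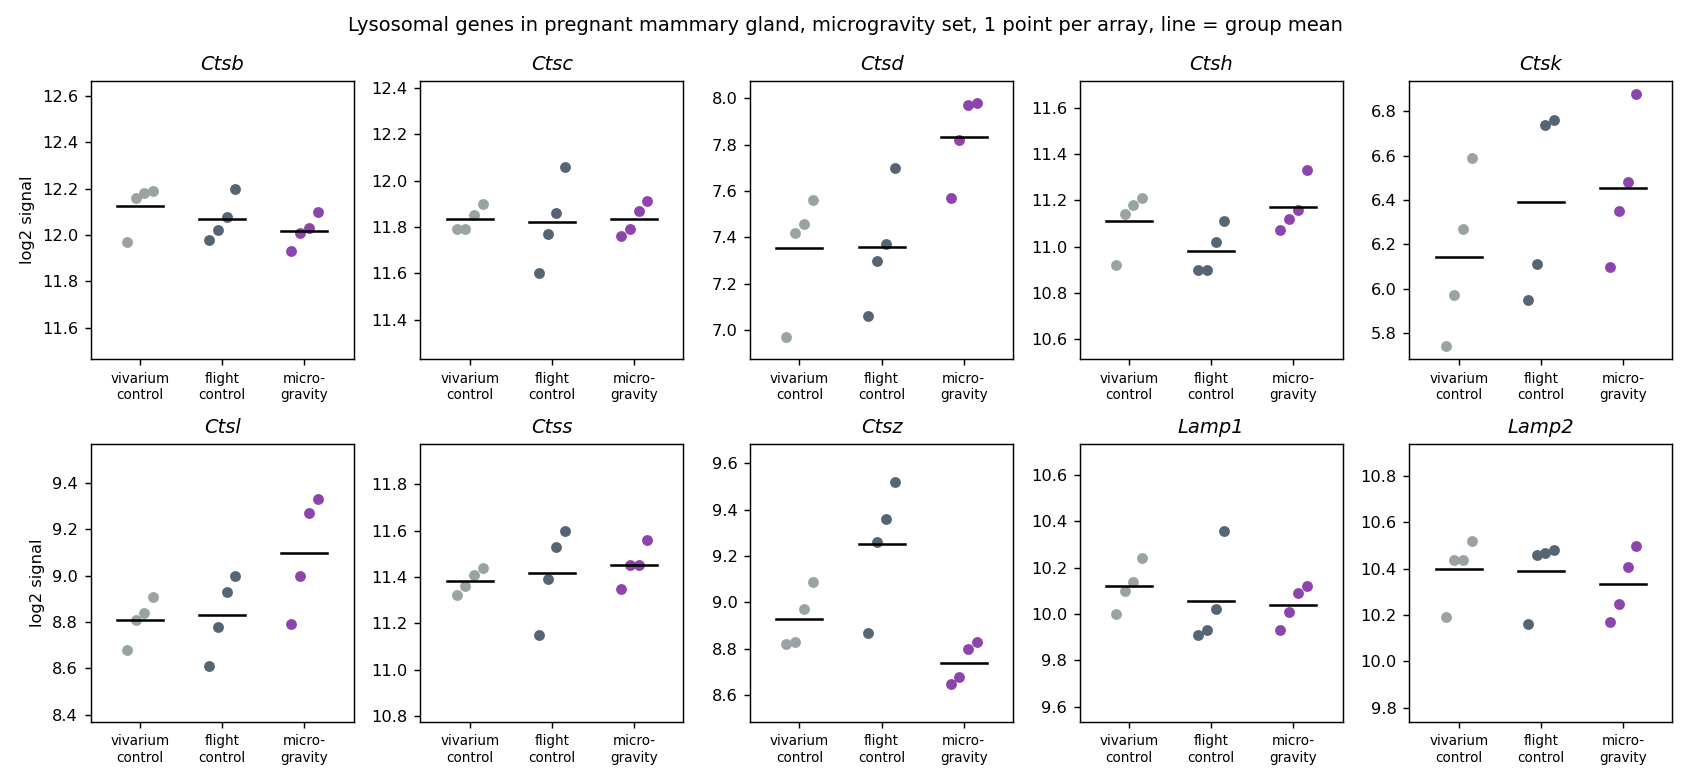
Log2 signal of the 10 genes in pregnant mammary gland of the microgravity set, 1 point per array and a line at the group mean, each panel on its own axis. Ctsz lies at 8.65 to 8.83 in microgravity and at 8.87 to 9.52 in the flight control, and Ctsd at 7.57 to 7.98 in microgravity.

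Over the 3 tissues together the 10 genes did not vary as one group. Over the 58 arrays at standard gravity or in hypergravity, after subtraction of each tissue's mean, Ctsl went with Ctsd (Pearson's r across arrays 0.66) and with Ctsb (0.61). Ctsk and Ctss formed another pair (0.66), and Ctss went with Ctsc (0.56). Ctsd and Ctss ran in opposite directions (-0.43). Lamp1 went with Ctsb (0.53), and Lamp2 had no value above 0.31 with any of the others. Within single tissues the pattern differed. With A48S and its muscle markers included, each gene's median r with the others ran from 0.11 (Lamp1) to 0.56 (Ctsk) in adipose tissue. It ran from -0.09 (Ctsz) to 0.28 (Ctsb and Ctsd) in mammary gland and from -0.28 (Ctsc) to 0.31 (Ctsb) in liver. The lowest r of Ctss with any of the others was -0.76 in mammary gland and -0.06 in adipose tissue. All of these are descriptions over arrays that share their groups, with no test.

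The genes most like each one over the same arrays were found among all 14217. Nearest to Ctsb was Cd14, a monocyte receptor for bacterial lipopolysaccharide, with r = 0.78, then Niban2 with 0.77. Nearest to Ctsl were Sdr16c5, a retinol dehydrogenase, with 0.83 and the defensin Defb1 with 0.80. Ctsd was nearest to Gabarap, an autophagosome protein, with 0.90 and to Rhoa with 0.89. Ctsz was nearest to Cyba, a subunit of the phagocyte oxidase, with 0.83 and to Coro1b with 0.76. Ctss was nearest to Cpq and Il10ra, the receptor of interleukin 10, each with 0.78. Ctsk was nearest to Cpxm1 and the lysosomal galactosidase Glb1, each with 0.72. Ctsc was nearest to Bcl2a1 (0.71) and Fyb1 (0.68), and Ctsh to Tcn2 (0.62) and P2ry14 (0.59). Lamp1 was nearest to Cnppd1 (0.73) and Fam241b (0.72), and Lamp2 to Snx1 (0.66) and Prr13 (0.64).

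**Figure D5:**
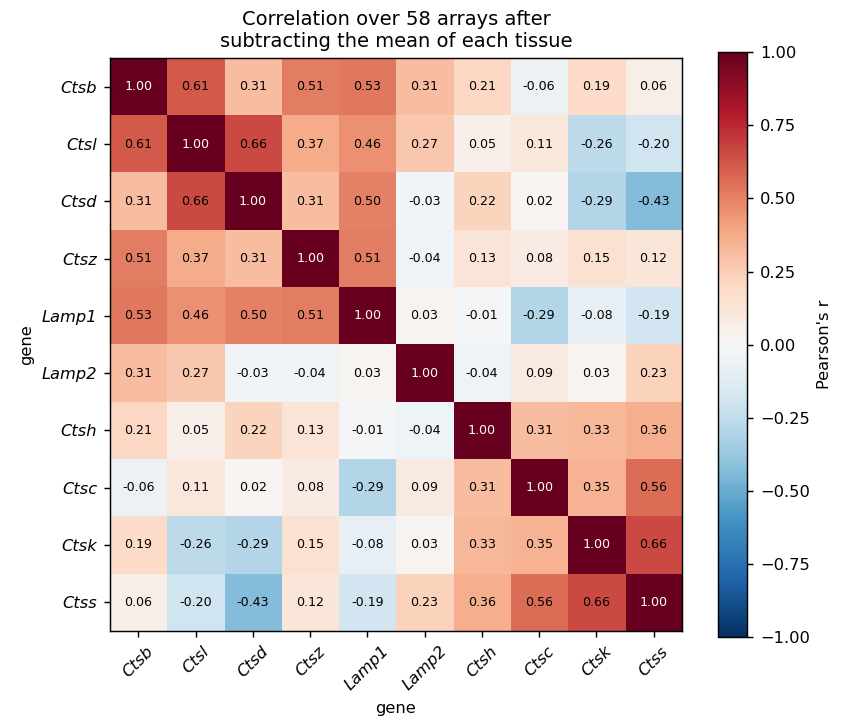
Pearson's r between the 10 genes over 58 arrays after the mean of each tissue was subtracted, from -1 in blue to 1 in red. Ctsb, Ctsl, Ctsd, Ctsz and Lamp1 have positive values with each other (0.31 to 0.66), and Ctsk, Ctss and Ctsc do so too (0.35 to 0.66).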

How the data were processed

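The authors deposited 1 table of log2 signals for 31042 probe sets on 72 arrays, made with RMA per the submitters' processing notes; its version and the arrays processed together are not given in the sources used here. RMA includes quantile normalization, which can hide a shift shared by most genes. Per the labels, 25 ng of total RNA was amplified with the NuGEN Ovation Biotin system, after extraction with TRIzol (mammary gland, liver) or RNeasy Lipid (adipose tissue). No column was left unused. Probe sets were named by the platform annotation where it gives a single symbol (20826; 436 have several, 9780 none).

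Groups came from the labels. Members, lists and tests were chosen with earlier results of these data known. The rule named the 10 members throughout, up to 2 called genes per direction of each other list, and the 2 genes most like each member by Pearson's r.

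limma 3.58.1 in R 4.3.3 (lmFit, eBayes, group means, two-sided, Benjamini-Hochberg over all probe sets, threshold 0.05) was fitted on 19 mammary, 20 liver, 19 adipose, 12 microgravity-set and, between tissues, 58 arrays, and tested on simulated data. M210H and A210H were left out. Precision is limited by the 4 or 5 arrays per group.

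Rat codes recur in the 3 tissues, per the labels. Deviations from group means correlated at a median of 0.13, 0.12 and 0.16 for arrays of one rat (mammary and liver, mammary and adipose, liver and adipose) and at -0.03, -0.04 and -0.03 for different rats; the rat was a block in an alternative.

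Alternatives were array weights, a trended robust prior, a filter on dim probe sets, renewed quantile normalization, the mean of a gene's probe sets, only the compared groups, each array left out, arrays with markers of another tissue (hepatocyte, muscle) left out, the exchanged arrays kept and the replicate block. Leaving out arrays with milk protein or lymphocyte markers, and applying the other-tissue setting between tissues, was chosen after seeing the data. A value not called in either fit was counted as the same.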

Additional observations from a re-analysis of the deposited data

Results flagged for a closer look

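In 150 sets of 4 or 5 arrays (10 genes in 15 groups), 9 had an array far from the others by Dixon's criterion, where chance flags about 1 in 20, or 7.5. Ctsk stood at 3.63 in L216S (other lactating livers at standard gravity 4.24 to 4.40), at 7.46 in A219S (other lactating adipose tissue at standard gravity 5.57 to 6.05) and at 4.11 in L55H (other pregnant livers in hypergravity 3.90 to 3.94). In liver L203H, of a lactating rat in hypergravity, Ctsb stood at 12.03 (others 11.88 to 11.89) and Lamp2 at 10.83 (others 10.39 to 10.50). In mammary gland, Ctsc stood at 11.21 in M57S (others 11.59 to 11.73) and Ctsl at 9.18 in M55H (others 7.72 to 8.14). In the microgravity set, Lamp2 stood at 10.16 in the flight control FDSA (others 10.46 to 10.48) and Ctsb at 11.97 in the vivarium control VIVC (others 12.16 to 12.19).

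Effects that differed between groups by a test of the difference were the interaction of stage and hypergravity in mammary gland for Ctsb (1.14, limma adjusted p = 0.0044) and Ctsl (1.84, limma adjusted p = 0.0098). The stage difference at standard gravity differed between mammary gland and liver for Ctsd (1.83), Ctsb (-0.47) and Lamp2 (-0.50), and between mammary gland and adipose tissue for Ctsd (1.80), Ctsb (-0.75) and Ctss (-0.76).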

How the results depend on the processing

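Of 10775 values of single genes under an alternative, 3389 kept their call and direction, 7242 stayed uncalled (305 of these with the sign turned), 81 lost the call, 61 gained it and 2 reversed; the causes were not tested. Of 230 counts of called members, 221 stayed within 1.5 times, where 0 in both fits was counted as staying. Every comparison within liver, adipose tissue or the microgravity set had 0 called members in the reported fit. With the mean of a gene's probe sets, the mammary interaction had 4 called members (2 in the reported fit), the stage in liver in hypergravity 3 (0) and the stage effect of mammary gland against adipose tissue 5 (3), and the difference of Lamp2 between liver and adipose tissue turned to 0.13 in pregnancy and 0.25 in lactation. Without the arrays carrying other tissues' markers the interaction had 1. With only the groups compared, the stage in mammary gland in hypergravity had 3 (5) and hypergravity in lactation 5 (3). The stage in liver in hypergravity had 1 with array weights, 1 with the trended robust prior and 1 without the arrays carrying milk or lymphocyte markers. Leaving out 1 array gave 0 to 1 for that comparison (1 without L55H), 0 to 1 for microgravity against flight control (1 without FDSD) and 1 to 4 for the stage effect of mammary gland against liver (outside 1.5 times without M44S, L219S or M202S). With the rat as a replicate block, Ctsk in lactating mammary gland against liver lost its call (adjusted p = 0.053) and the stage effect of Ctss between these tissues gained one (0.049), and no other member call changed. In the microgravity set, deviations from group means of arrays with the same letter correlated at -0.15 to 0.08. This cannot decide whether the letters pair arrays, since arrays of one rat in mammary gland and liver ran as low as -0.05. Over all probe sets, under the alternatives that leave out no single array, calls ran from 2516 to 5376 for hypergravity in lactating mammary gland (2928 reported), from 23 to 204 (114) and 11 to 749 (153) for microgravity against flight and vivarium controls and from 1 to 164 (126) for hypergravity in lactating liver. With 1 array left out these ran from 2119 to 3486, 14 to 185, 38 to 244 and 34 to 244, and 1 array moved them over 1.5 times in the last 3 (11 of 12, 10 of 12 and 8 of 20 arrays).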
